A study of Mus musculus with 14 samples.

Results

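The mouse medial vestibular nucleus holds excitatory and inhibitory neurons, which were compared here as pooled single-cell cDNA over all genes of an Affymetrix expression array. This brainstem nucleus receives signals of head motion from the inner ear and controls reflexes of gaze and posture. The excitatory side was 4 arrays of 2 pools, E1 and E2, and the inhibitory side 10 arrays of 5 pools, I1a, I1b, I2, I3a and I3b, which together are all 14 arrays of the series. Sides were taken from the cell type in each array's title. Every pool carries the same labels: brainstem, the C57BL/6 background, an age of 24 to 32 days after birth, and 3 reporter mouse lines (YFP-16, GIN, GlyT2-13), so the line of a given pool is not known. By general knowledge these lines drive a fluorescent protein from regulatory sequence of Thy1, of Gad1 and of Slc6a5, the gene of GlyT2. All cells thus come from reporter mice, the number of cells and of animals in a pool is not stated, and the E3 type that the design names was not analysed here.

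A neuron's fast transmitter follows from the transporter that fills its synaptic vesicles. Glutamate is loaded by vesicular glutamate transporters, of which Slc17a6 (VGLUT2) is the usual form in the brainstem, while GABA and glycine share the transporter Slc32a1 (VGAT). GABA is made from glutamate by the enzymes Gad1 and Gad2, and glycinergic terminals take glycine back up through Slc6a5. In the vestibular nuclei both kinds of neuron occur, and several of their types fire at very high rates.

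Each pool was hybridised to 2 arrays that share its cDNA, so the mean of those arrays is the value of the pool and the pool is the replicate, 2 against 5. Nothing in the labels says that pools came from separate animals, and the p-values measure only the spread between these pools. Values are log2 signals with a floor at 2.387, and 15.1% to 16.4% of probe sets on an array reached 5. Of 16244 genes, 4409 (27.1%) had a pool mean of at least 5 and were tested; these are called kept genes below. Over them the technical SD was 0.191 (I2) to 0.295 (I3a) log2 units, while the SD between pools was 0.419 for E and 0.661 for I, so the I pools differed more among themselves than the arrays of a pool did. In pooled cDNA, fewer cells that carry a transcript and less transcript per cell cannot be told apart.

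Slc32a1, which fills vesicles with GABA or glycine, was the 1 gene that passed the test, and it was lower in the E pools (Entrez gene 22348). Because the study classified its cells by transmitter genes among others, Slc32a1 gives no independent evidence of its direction. Its level was 6.60 in E1 and 5.41 in E2, and among the I pools 9.32 in I1a, 9.20 in I1b, 9.76 in I2, 9.54 in I3a and 9.57 in I3b. The I pools lay between 9.20 and 9.76, and the nearest E pool stood 2.60 below the lowest of them. Across single arrays the 4 E values were 6.75, 6.44, 5.72 and 5.10, and the 10 I values ran from 9.19 to 9.78. The I mean was 9.48 ± 0.22 (SD, n = 5) and the E minus I difference was -3.48 (SE 0.33, 95% interval -4.25 to -2.70), with an adjusted p of 0.0396 (limma, Benjamini-Hochberg over 4409 genes). The difference was alike against each inhibitory family, at -3.26 from I1, -3.76 from I2 and -3.55 from I3, comparisons that share the same E pools. The adjusted p was between 0.0781 and 0.223 when E2, I1a, I1b, I2, I3a or I3b was left out, and 0.341 when each I family counted as 1 sample, while the difference itself stayed between -4.07 and -2.88.

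The other genes of GABA and glycine handling lay lower in the E pools as well, without passing the test. Gad1 was at 7.80 in E1 and 6.80 in E2, against 11.71 in I1a, 10.75 in I1b, 12.38 in I2, 10.86 in I3a and 12.36 in I3b. Its difference of -4.31 (SE 0.54, 95% interval -5.57 to -3.05) was the largest of any non-overlapping gene on the lower side, and its adjusted p was 0.135. I1b and I3a were its lowest inhibitory pools, and the gap from E1 to I1b was 2.95. Gad2, the second GABA-making enzyme, was at 5.72 and 6.43 in the E pools and at 8.41, 7.92, 8.90, 8.99 and 9.33 in the I pools in the order above, a difference of -2.64 (SE 0.40, adjusted p 0.340). Slc6a5 parted the E pools themselves: E1 was at 6.31 and E2 at 3.33, near the floor, while the I pools lay between 7.53 and 8.47. Its difference of -3.28 (SE 0.70, adjusted p 0.737) was -4.77 with an adjusted p of 0.0307 when E1, the higher E pool, was left out; that leaves E2 alone, assumed to vary like the I pools, and is no check of the difference. Abat, which breaks GABA down, differed by -1.10, and Slc6a9, a glycine transporter found mainly on glia, by -0.37. Slc6a9 was kept through I pools only and its single arrays overlap, with E2 reading up to 4.88 and I1b down to 4.85. In all 6 kept genes of this list the means of E1 and E2 were lower than every I pool mean, with a median difference of -2.96, where 6.19% of kept genes did so and the median of all was -0.01. The study classified its cells by transmitter genes among others, so this list is no independent evidence of its direction. With the 14 arrays fitted singly and the pool as a random block, Gad1, Gad2 and Slc6a5 also had adjusted p under 0.05 (4.68e-05, 0.000686 and 0.00864), but technical arrays then add to the degrees of freedom although there are still 7 pools.

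Slc17a6, the vesicular glutamate transporter, did not part the sides in the same way. It was at 11.11 in E1 and 10.98 in E2, and in the I pools at 8.60 (I1a), 10.48 (I1b), 3.11 (I2), 6.93 (I3a) and 3.19 (I3b). The 2 E pools were thus nearly equal and above all I pools, but I1b came within 0.50 of them while I2 and I3b were close to the floor. The difference was 4.58 with a standard error of 2.0, a 95% interval from -0.07 to 9.23 and an adjusted p of 0.753. By family it was 1.51 from I1, 7.93 from I2 and 5.99 from I3. Of the other glutamate genes, Slc17a7, the transporter typical of cortex, was at 2.82 or below in every pool, and Slc17a8 was not analysed here. Slc38a1 and Slc38a2, which carry glutamine, differed by -0.33 and 0.43, and Slc1a1, a neuronal glutamate transporter, by 0.63. The 4 kept genes of the glutamate list had a median of 0.53, with 1 above and 1 below all I pools.

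**Figure D1:**
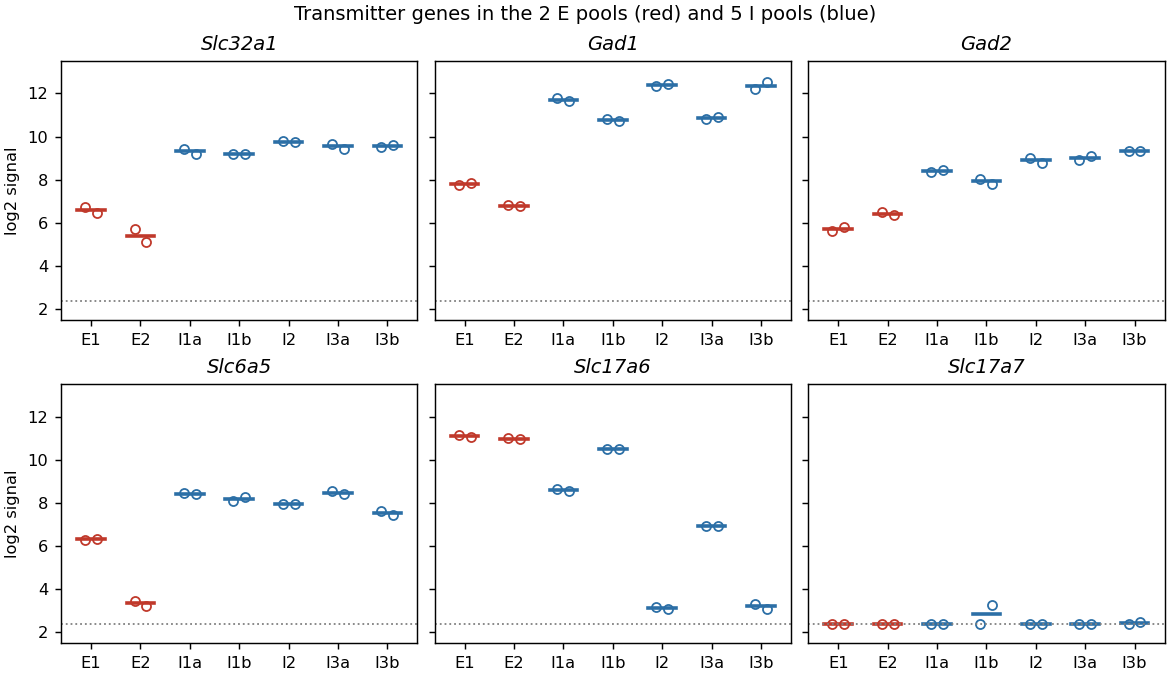
Log2 signal of 6 transmitter genes in the E pools (red) and I pools (blue); open circles are the 2 technical arrays, bars their mean, and the dotted line the floor of the scale. For Slc32a1, Gad1, Gad2 and Slc6a5 both E bars lie below all I bars, while for Slc17a6 the I bars spread from 3.11 to 10.48 and Slc17a7 lies near the floor throughout.

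The promoters of the 3 genes at the centre of this contrast are shown because their transcripts part the sides to different degrees. They are 300 bases around the annotated start from RefSeq (GRCm38.p6), all on the plus strand and written 5′ to 3′, with a motif match in capitals. The first is Slc32a1 at chr2:158610508-158610807, the second Gad1 at chr2:70561879-70562178 and the third Slc17a6 at chr7:51621580-51621879, the first of 2 entries for that gene.
Slc32a1: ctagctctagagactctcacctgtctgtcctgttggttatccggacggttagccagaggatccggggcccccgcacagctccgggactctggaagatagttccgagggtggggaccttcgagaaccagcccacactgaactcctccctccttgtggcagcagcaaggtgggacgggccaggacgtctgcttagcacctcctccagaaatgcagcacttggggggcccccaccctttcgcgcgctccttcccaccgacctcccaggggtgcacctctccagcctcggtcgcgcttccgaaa
Gad1: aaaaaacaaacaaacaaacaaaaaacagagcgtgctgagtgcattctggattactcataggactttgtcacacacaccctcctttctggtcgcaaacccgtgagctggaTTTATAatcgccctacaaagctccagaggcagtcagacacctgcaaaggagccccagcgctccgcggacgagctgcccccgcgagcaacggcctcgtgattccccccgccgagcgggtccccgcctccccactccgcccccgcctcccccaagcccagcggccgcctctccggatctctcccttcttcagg
Slc17a6: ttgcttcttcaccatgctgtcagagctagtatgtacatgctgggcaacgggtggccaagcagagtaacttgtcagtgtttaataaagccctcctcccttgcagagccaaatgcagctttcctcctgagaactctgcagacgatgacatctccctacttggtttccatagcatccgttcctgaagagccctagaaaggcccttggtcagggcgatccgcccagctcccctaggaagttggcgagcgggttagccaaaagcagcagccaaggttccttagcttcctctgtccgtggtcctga

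The 2 promoters of inhibitory genes are richer in G and C than the median promoter. GC content was 63.3% for Slc32a1 and 60% for Gad1, against 53.7% for Slc17a6 and a median of 52.7% over 32851 promoters in the table. CG pairs numbered 17, 21 and 8 in the same order, against a median of 7. Motifs were searched on both strands as exact letters: the cyclic AMP response element TGACGTCA (in 1.79% of all promoters), the E-boxes CAGCTG (16.3%) and CATCTG (17.2%), and the TATA box TATAAA (13.6%). The 1 match was a TATA box in Gad1, read on the opposite strand, at position 110 from the first base printed. The other letters are not in these windows, which says nothing about the factors that bind there, and Crh, the gene with the highest difference below, has no entry.

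Over all kept genes the sides were separated in few. With the adjusted p required to be under 0.05 and the sides at least 1 log2 unit apart, 0.0227% of kept genes passed, which is Slc32a1 alone. Before adjustment 273 genes had a p under 0.05, and Gad1 had the second smallest adjusted p. Positive differences made up 49.3% (2174 genes). Both E pools lay above all 5 I pools in 264 genes (5.99%) and below them in 273 (6.19%). Differences of at least 1 occurred in 3.7% of kept genes on the higher side and in 3.52% on the lower side. Of the non-overlapping genes, 68 were also higher by at least 1 and 73 lower by at least 1. A gap of at least 1 between the nearest pools was left in 2 higher genes and 8 lower ones. Leaving out a pool can only keep or raise the counts of genes above and below all I pools. Without E1 they were 592 above and 664 below, without E2 775 and 653, without I1b 577 above, and without I1a 537 below.

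**Figure D2:**
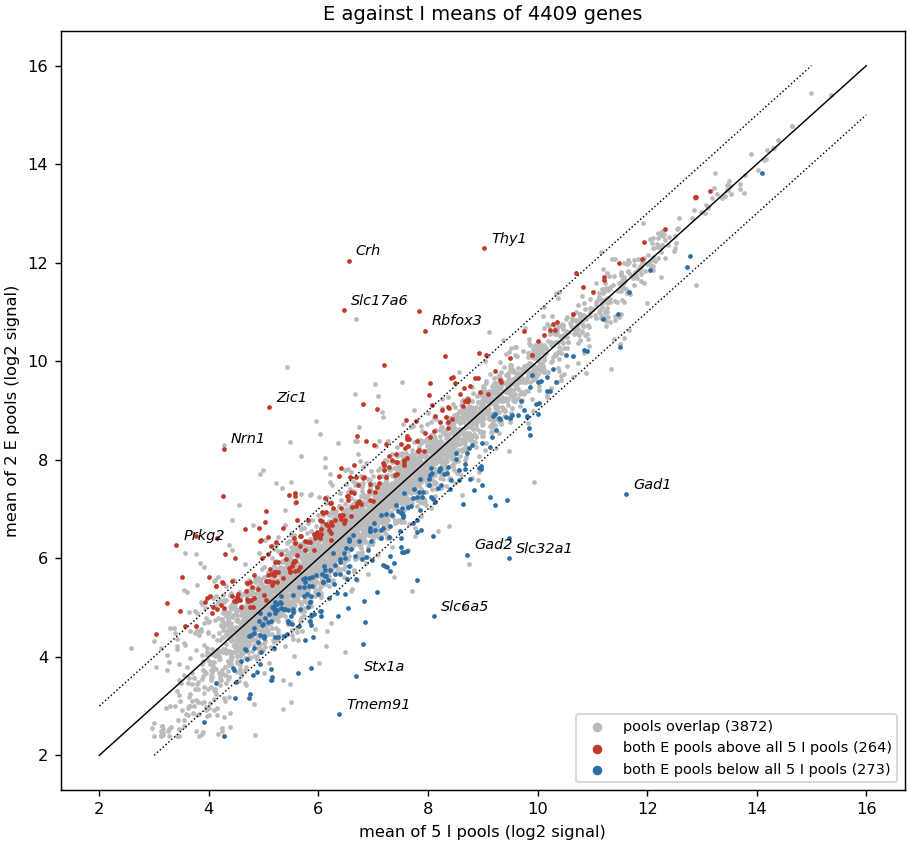
Mean log2 signal of the 2 E pools (vertical) against the 5 I pools (horizontal) for 4409 kept genes, with lines of equality (solid) and of a difference of 1 (dotted). Red and blue points are the 264 and 273 genes in which both E pools lie above or below all I pools; Slc32a1, Gad1, Gad2 and Slc6a5 lie farthest below the line among the labelled genes, with Tmem91 and Stx1a, and Crh and Slc17a6 farthest above it.

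Crh, the gene of corticotropin-releasing hormone, had the largest difference of all genes whose pools did not overlap. It was at 10.87 in E1 and 13.22 in E2, and at 2.86 in I1a, 8.29 in I1b, 7.73 in I2, 9.69 in I3a and 4.19 in I3b. The I pools ranged from near the floor to 9.69, and E1 stood 1.18 above the highest of them. The difference was 5.49 (SE 1.84, 95% interval 1.21 to 9.77, adjusted p 0.737). Crh and Prkg2 were the 2 higher genes with a gap of at least 1. Prkg2, a cGMP-dependent protein kinase, was at 6.18 and 6.34 in the E pools, at 5.11 in I1b and between 2.57 and 3.16 in the other I pools. Its difference was 2.86 (SE 0.66, adjusted p 0.737).

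Nrn1, a membrane-anchored protein that promotes neurite growth, was at 8.20 and 8.24 in E1 and E2, at 7.25 in I1b, 5.07 in I1a, 3.08 in I3a and I3b and 2.88 in I2. The E pools were alike and I1b the nearest of the others, and the difference was 3.95 (SE 1.16). Thy1, a surface glycoprotein of projection neurons, was at 12.46 and 12.11 against 10.30, 11.71, 6.57, 9.62 and 6.91 in I1a, I1b, I2, I3a and I3b, a difference of 3.26 (SE 1.36). Regulatory sequence of Thy1 drives the YFP-16 reporter, so cells of that line were chosen through it. Fhod3, a formin that acts on actin, differed by 3.02, with I1b at 6.77 against 7.08 and 7.45 in the E pools. Vamp1, the vesicle SNARE of fast-releasing terminals in the brainstem, differed by 1.97, with E2 at 8.88 and I1b at 8.86.

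Zic1, a transcription factor of the dorsal hindbrain, was at 8.28 and 9.85 in the E pools, at 7.92 in I1b and 8.22 in I3a, and at 2.71 to 3.63 in the other I pools. Its pools were parted by only 0.06, and the difference was 3.97 (SE 1.71). Rbfox3, the splicing factor known as NeuN, was at 10.45 and 10.78 against 8.55, 9.48, 7.91, 8.37 and 5.39, a difference of 2.68 (SE 0.95) with a gap of 0.97. Rbfox1, of the same family, differed by 2.34, but a second probe set that also reached 5 gave -0.07. A pair of regulators of calcium signals followed, Pcp4, a calmodulin-binding peptide (3.17), and Caln1, a calmodulin relative (2.71). In both of these I2 and I3b lay far below the other I pools, at 3.18 and 5.66 for Pcp4 and at 3.78 and 5.80 for Caln1. Cks2, a subunit of cyclin-dependent kinases, differed by 2.69, Socs2, a brake on cytokine signalling, by 2.26, and the chemokine Cxcl12 by 2.12. For Socs2 and Cxcl12 the E pools were unequal, at 5.61 and 7.23 and at 4.25 and 6.99. Socs2 was kept through E pools only and Cxcl12 through E2 only. Single arrays of Cxcl12 overlap, with E1 reading down to 4.09 and I3a up to 4.24. Hsbp1l1, Rab37 (a small GTPase of secretory vesicles), Sycp3 (a protein of meiotic chromosomes) and Haus3 (a spindle protein) had smaller differences of 1.62, 1.42, 1.86 and 1.53 but gaps of 0.79 to 0.97. Hsbp1l1 was kept through E pools only. Rab37 and Sycp3 were kept through E2 only, with E1 at 3.91 and 4.67. Single arrays of Sycp3 overlap, with E1 reading down to 4.37 and I1a up to 4.42. None of the genes in this paragraph passed the test (adjusted p 0.737 to 0.780).

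On the lower side, 2 genes of the syntaxin and synaptotagmin families stood beside the transmitter genes. Stx1a, the plasma-membrane SNARE syntaxin 1A, was at 2.85 in E1 and 4.37 in E2, and at 6.20, 4.70, 6.88, 7.75 and 7.95 in I1a, I1b, I2, I3a and I3b. The E pools and I1b formed the low end, and the difference was -3.08 (SE 0.88, adjusted p 0.737). Stx1a was kept through I pools only and its single arrays overlap, with E2 reading up to 4.82 and I1b down to 4.63. Syt17, of the synaptotagmin family, was at 4.87 and 3.65 against 5.56 to 7.98, a difference of -2.56 (SE 0.66). Tmem91, a membrane protein, was near the floor in the E pools at 2.99 and 2.67, at 3.98 and 4.96 in I1a and I1b, and at 7.32 to 8.26 in I2, I3a and I3b. That gives -3.55 (SE 1.12), a difference whose size depends on where the floor lies. Tmem91 was kept through I pools only, and its single arrays overlap, with E1 reading up to 3.50 and I1a down to 3.39. Rab26os, by its name a transcript opposite to the vesicle GTPase gene Rab26, was at 4.87 in E1 but 7.96 in E2, against 8.66 to 10.04, a difference of -3.06. With an array the strand of origin rests on the probe design, which was not checked.

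Hmgb3 is a chromatin protein. Its E pools were at 4.98 and 4.99 and its I pools at 6.65, 6.18, 6.97, 6.20 and 6.66, which leaves a gap of 1.19. The E means agree more closely than their arrays, which read 4.62 and 5.34 in E1 and 5.17 and 4.80 in E2. The difference was -1.55 (SE 0.26) with an adjusted p of 0.427. Mboat7, which attaches fatty acids to phosphatidylinositol, was at the floor of 2.39 in both E pools, at 5.87 in I2 and at 3.81 to 3.93 in the other I pools, a gap of 1.42. That gap rests on averages of arrays that disagree: I1a read 5.47 and 2.39, I3a 2.39 and 5.23, and I3b 5.39 and 2.46, so in each of these 3 pools 1 array was at or near the floor like the E arrays. Fnbp1l, which links membrane curvature to actin, was at 6.76 and 7.40 against 8.48 to 9.72 (difference -2.14, gap 1.08). Auts2, a nuclear regulator of nerve cell development, was at 5.79 and 5.33 against 6.83 to 9.07 (difference -2.24, gap 1.04). Its adjusted p was 0.737. Sema3e, a secreted guidance cue, was at 7.46 and 6.91 against 7.99 in I1b up to 11.09 in I2, a difference of -2.25. Adarb2, a relative of the RNA-editing enzymes, differed by -2.14, Plcxd1 by -2.10 and Vasn, a binder of TGF-beta, by -1.96. In each of these the I2 pool lay at or near the top, as in Sema3e. Hmgb3, Mboat7, Adarb2, Plcxd1 and Vasn were kept through I pools only. Single arrays of Plcxd1 overlap, with E1 reading up to 3.97 and I1b down to 3.81. Of 69 further probe sets for the genes named here, 19 reached 5 in a pool, and 18 of those had the sign of the probe set used. A shared sign is no check of size or separation. The further set was smaller for Gabra2 (0.22 against 1.74) and Lamb1 (-0.89 against -2.39), and larger for Nefl (1.94 against 1.06).

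**Figure D3:**
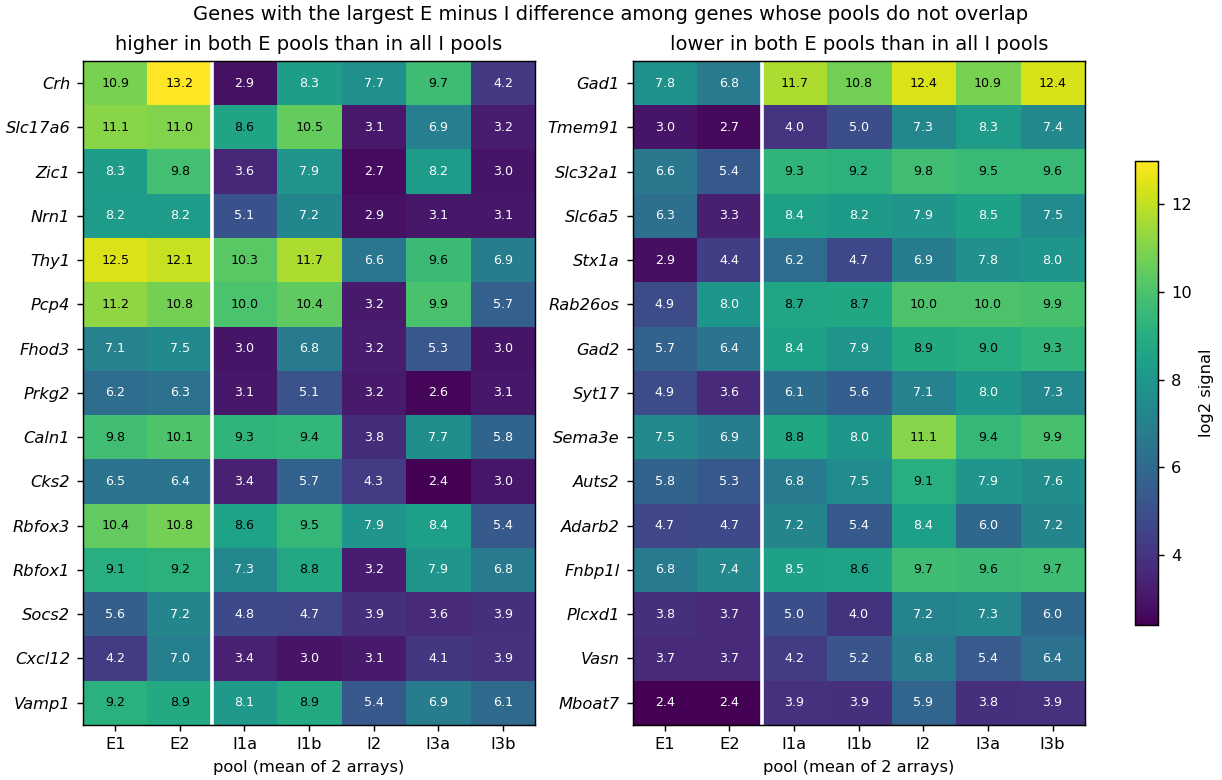
Log2 signal, as colour and number, of the 15 genes with the largest positive and the 15 with the largest negative E minus I difference among genes whose pools do not overlap, by pool. On the higher side I1b is often close to the E pools, as for Vamp1 (8.86 against 8.88 in E2), and in Gad1 and Slc32a1 on the lower side the I pools are all far above both E pools.

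Genes were then read in 24 lists by function, each with the same measures as over all kept genes (49.3% positive, median -0.01, 5.99% above and 6.19% below). A member had to reach 5 in at least 1 pool, so these counts describe the members that did and carry no test. Separation was read on pool means, and single arrays of members named as apart can overlap. Apart from Slc32a1 no member of any list passed. Members named below for their separation alone were chosen after their values were seen, and the study used ion channels and cell markers to classify the cells.

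Transcription factors gave few kept members. Of the factors of excitatory hindbrain lineages 6 of 22 measured were kept, with a median of 0.01 and Zic1 as the 1 that lay apart; Nhlh2, a helix-loop-helix factor, differed by -1.05 with 6.72 in I2 and at most 4.10 elsewhere. Of the factors of inhibitory lineages 1 of 22 was kept, Otp, at 0.80 with overlap. Absence of the others from the kept genes says only that they stayed under 5 in these pools. Among Hox, Pbx and Meis genes, which set position along the hindbrain, 5 were kept, 1 was positive and the median was -0.34. The positive member was Pbx3 at 2.88, for which I1b (8.04) lay between the E pools (7.75 and 8.96). Immediate early genes, which follow recent activity, had 3 kept members with a median of 0.17.

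Channels that support fast firing tended to be higher in the E pools by value, with wide spread among I pools. In that list 10 of 13 kept members were positive, the median was 0.61, and 1 member lay apart. That member was Scn8a, the sodium channel of axon initial segments and nodes, at 9.65 and 9.48 against 8.70, 9.29, 6.76, 7.82 and 7.64 (difference 1.52, SE 0.62, adjusted p 0.753). Scn4b, a sodium channel subunit that speeds recovery for the next spike, had the largest difference at 4.47 (SE 1.88), but its 9.75 in I1b exceeded the 9.62 of E2, and I2 and I3b were near the floor. Kcna1, a low-threshold potassium channel, differed by 2.49 and Kcnc2, of the Kv3 family of fast repolarisation, by 1.63, again with I1b within or above the E pools. Kcnt2, a sodium-activated potassium channel, differed by -1.41 through 7.55 in I2.

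Other sodium, calcium and HCN channel genes leaned the other way. Of 11 kept members 3 were positive and the median was -0.54. Scn2a, the sodium channel of unmyelinated axons and immature neurons, was at 7.57 and 7.93 in the E pools and at 10.34, 9.81 and 9.59 in I2, I3a and I3b, but at 6.73 in I1a (difference -1.18, SE 0.91). Scn3a at -1.02, the sodium channel subunit Scn3b at -1.18 and the sodium channel modulator Fgf13 at -1.73 overlapped as well. Nalcn, the sodium leak channel, was the 1 member apart, at 10.92 and 11.00 against 11.27 to 11.80 (difference -0.51). The other potassium channels had 15 kept members, 5 positive, with a median of -0.04. By pool mean Kcna6 (1.24) and Kcnh2 (0.86) lay apart above and Dpp6 (-0.45) below. Kcna6 was kept through E pools only, and its single arrays overlap, with E2 reading down to 4.80 and I1a up to 5.27. Single arrays of Dpp6 touch at 5.85, in E2 and I1a. Kcnj3, an inward rectifier opened by G proteins, differed by 1.73 and Kcna4, an inactivating channel, by -1.19, both with overlap.

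All 8 kept genes of neurofilaments and the axon cytoskeleton were positive, with a median of 0.70, but only 2 of them lay apart. These were Ina, an intermediate filament protein (0.79, gap 0.01), and Stmn3, a microtubule regulator (0.49, gap 0.06). Single arrays of Ina overlap, with E2 reading down to 6.44 and I1b up to 7.16, and those of Stmn3 touch at 12.39. A second probe set of Ina did not part the pools, at 6.18 in E2 and 6.55 in I1a. A second set of Stmn3 did, at 7.08 in E2 and 6.89 in I1b. The large differences were in the neurofilament subunits, whose pools overlapped through I1b. Nefh was at 9.79 and 8.87 against 7.71, 9.16, 5.85, 5.47 and 5.13, a difference of 2.66 (SE 1.07, adjusted p 0.753). Nefm differed by 2.38 and Nefl by 1.06.

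Genes of vesicle release were split. In the SNARE and release list 20 members were kept, 13 of them positive, with a median of 0.26; Vamp1 lay apart above, and 4 lay apart below. Besides Stx1a and Syt17 these were Vamp2, the main vesicle SNARE of the forebrain, at 4.19 and 4.66 against 4.84 to 5.97 (difference -0.94), and Syt7, a slow calcium sensor, at -0.49. In the further probe sets of Syt7 that reached 5 the pools overlapped, with E1 at 7.14 and 6.30 and I3a at 6.86 and 5.83. Stx1a, Syt17 and Vamp2 were kept through I pools only. By pool mean the related SNAREs Vamp1 and Vamp2 differed in opposite directions, neither past the test. Single arrays overlap in both. Vamp2 read up to 4.76 in E2 and down to 4.72 in I1b, and Vamp1 down to 8.86 in E2 and up to 8.94 in I1b. Syt2, the fast calcium sensor of brainstem synapses, differed by 2.79 and Unc13c, a vesicle priming factor, by 2.53; in both, I1b lay between the E pools. Synaptic vesicle proteins had 15 kept members with a median of -0.00. Synpr, a vesicle membrane protein, was at 4.12 in E1 and 7.66 in E2 against 11.91 in I2 and 6.23 in I1a (difference -2.86), and Sv2b differed by 2.54. Syn1 (0.33), Slc6a17 (0.51) and Atp6v1b2 (0.42) lay apart above by small amounts.

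**Figure D4:**
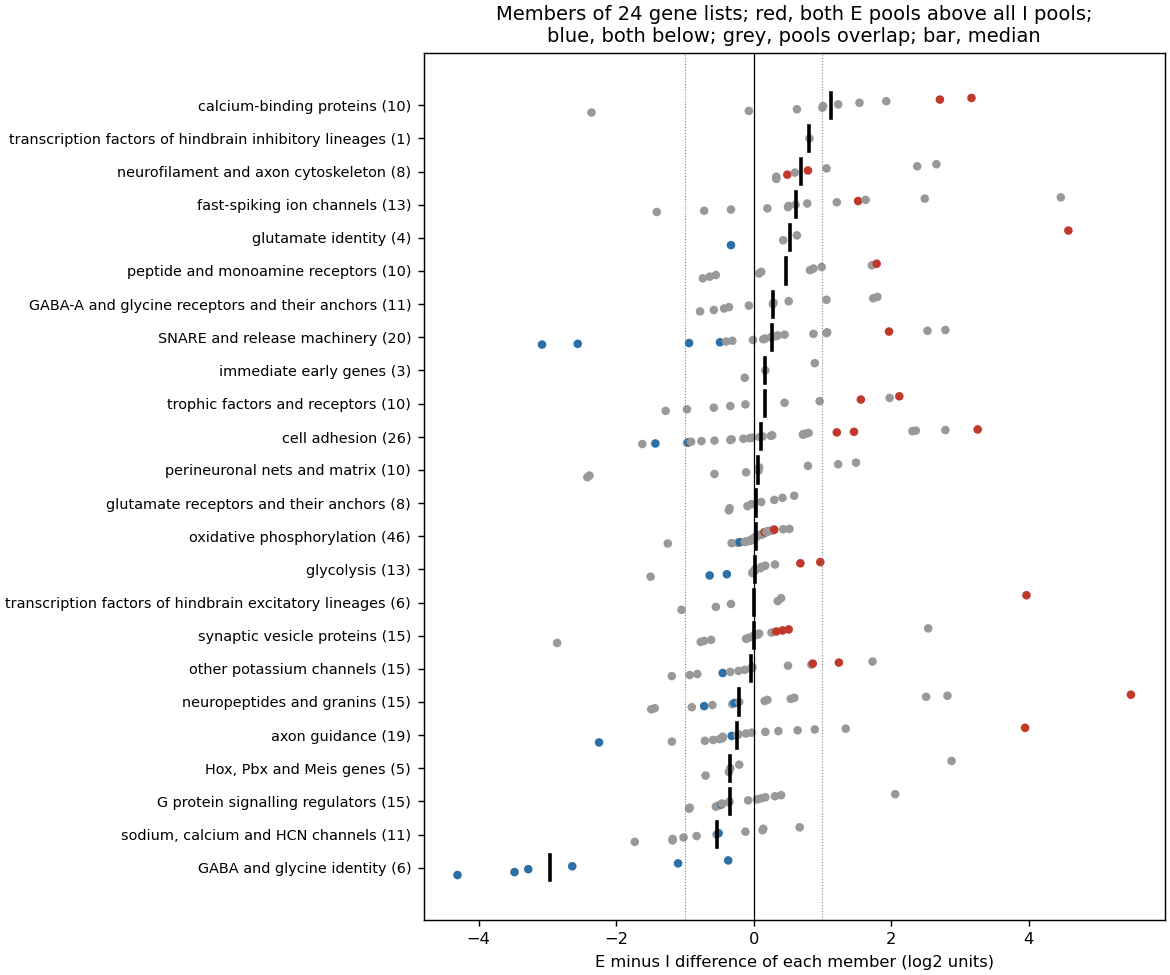
E minus I difference in log2 units of each kept member of the 24 gene lists, with the number kept in parentheses; red and blue members lie above or below all I pools in both E pools, grey ones overlap, and the black bar is the median. The GABA and glycine list sits at -4.31 to -0.37 with every member blue, while the medians of the other lists lie between -0.54 and 1.12.

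Receptor lists stayed near the median of all genes or slightly above it. GABA-A and glycine receptors and their anchors had 11 kept members, none apart, and a median of 0.28. Gabrb2 (1.80) and Gabra2 (1.74), both receptor subunits, and Gphn, the scaffold gephyrin (1.06), led by size with overlap. Glutamate receptors and anchors had 8 kept members, all between -0.36 and 0.59. Peptide and monoamine receptors had 10, with a median of 0.46, and the 1 apart was Htr2c, a serotonin receptor, at 10.55 and 9.64 against 9.39 in I1b down to 7.03 in I2 (difference 1.79, SE 0.64). Cnr1, the cannabinoid receptor, differed by 1.72, with I1b at 5.56 and I3a at 5.26 against 5.11 and 5.53 in the E pools.

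Peptide and calcium-binding genes showed pool-specific levels. In the neuropeptide and granin list 15 members were kept with a median of -0.21; Crh lay apart above, and Scg2, a granin (-0.72), and Cpe, a peptide-processing enzyme (-0.28), below. The synapse organisers Cbln4 (2.82) and Cbln1 (2.51) were high in both E pools but also in I1a, I1b and I3a. Crhbp, which binds the Crh peptide, differed by -1.49 through 8.27 in I3b and 5.30 in I3a, with the remaining pools at 2.99 or below. Cck, the cholecystokinin gene, differed by -1.44 through 7.0 in I2. Among calcium-binding proteins 8 of 10 kept members were positive, with a median of 1.12 and Pcp4 and Caln1 apart. Calb2, calretinin, was the exception by size at -2.36, with E1 at 6.62, E2 at 4.06 and I pools from 3.44 (I3a) to 10.20 (I2). S100b and S100a10 differed by 1.93 and 1.54 with overlap.

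Guidance, adhesion and matrix genes held members in both directions. Axon guidance had 19 kept members, 6 positive, with a median of -0.24. Nrn1 lay apart above, Sema3e and Nrp2 (-0.32) below. Nrp2 was kept through I1a only (5.21), and its gap was 0.01, with the E pools at 4.44 and I2 and I3a at 4.45. Its single arrays overlap. Sema3a differed by 1.34 and Sema3c by -1.19 with overlap. Cell adhesion had 26 kept members with a median of 0.11. Thy1, Pcdh19, a protocadherin (1.46), and Cntnap2, which gathers potassium channels beside nodes (1.21), lay apart above. The adhesion molecules Ncam1 (-1.43) and Nrxn3 (-0.95) lay apart below. Pcdh19 was kept through E1 only (5.35). Single arrays of Ncam1 overlap, with E2 reading up to 6.72 and I1b down to 6.57. Cntnap5a was at 7.67 and 7.78 in the E pools, at 7.90 in I1b and at 4.06 to 4.31 in the other I pools. Its difference was 2.79; without I1b it was 3.53 with an adjusted p of 0.0056, an outcome fixed by removing the 1 I pool at the E level. Cntn3, a contactin, had the same shape (6.77 and 6.78, 6.95 in I1b, at most 4.10 elsewhere; difference 2.36). Pcdh8 differed by 2.31 and Pcdh11x by -1.62. The matrix list had 10 kept members with a median of 0.07, led by Col24a1 (-2.42) and Lamb1 (-2.39) on the lower side and Bcan (1.49) and Spock1 (1.23) on the higher side, all with overlap.

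Trophic factors and receptors had 10 kept members with a median of 0.16. Fgf1, a growth factor, was at 7.17 and 7.14 against 6.70, 6.52, 4.92, 4.22 and 5.60 (difference 1.56, SE 0.66). By pool mean it lay apart with Cxcl12, whose single arrays overlap. Ret, the receptor of the GDNF family, differed by 1.98 with overlap, and Pappa by -1.28 through 8.23 in I2. G protein signalling regulators had 15 kept members with a median of -0.35. Gnaq, an alpha subunit, lay apart below (-0.47), and Rgs4 differed by 2.06 although I2 had the highest level at 11.32.

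Energy metabolism was close to even. Glycolysis had 13 kept members with a median of 0.02; Pkm, pyruvate kinase (0.97), and Pfkp, a phosphofructokinase (0.68), lay apart above, and the glucose transporter Slc2a3 (-0.64) and the hexokinase Hk1 (-0.39) below. Ldha, lactate dehydrogenase A, was at 8.76 and 10.92 in E1 and E2, at 8.22 and 10.60 in I1a and I1b, and at 12.51 to 12.84 in I2, I3a and I3b. Its difference of -1.50 thus set the E and I1 pools together against the rest. Oxidative phosphorylation had 46 kept members, 31 of them positive, with a median of 0.04. Ndufa10 (0.30) and Ndufv2 (0.16) lay apart above, Ndufa12 (-0.20) below, and Cox7c had the largest difference at -1.25 with overlap.

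The I1b pool lay nearest to the E pools. Its correlation with the E mean across 4409 genes was 0.970, against 0.951 for I1a, 0.923 for I3a, 0.909 for I3b and 0.863 for I2. E1 correlated with I1b at 0.964 and with E2 at 0.961, so by this measure the nearest pool to E1 was an inhibitory one. E2 correlated with E1 at 0.961 and with I1b at 0.958, so the nearest pool to E2 was E1. Genes are not independent, and the arrays share their normalization, so these values carry no p. The median absolute difference from the E mean was 0.236 for I1b and 0.476 for I2. E1 and E2 differed from each other by a median of 0.274 and by at least 1 in 343 genes. These last values are distances between pools and not from the E mean, so they do not compare with those for I1b and I2. By count, 240 genes were at least 1 from the E mean in I1b and 1040 in I2.

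Which inhibitory pool kept a gene from separating the sides was counted pool by pool. In 313 genes both E pools lay above the 4 other I pools but not above I1b, and in 47 of these the E minus I difference was at least 1. Scn4b, Nefh, Cntnap5a and Cntn3 are among them by the values given above. On the lower side the I1a pool had the most such genes, 264, of which 23 differed by at least 1, followed by I1b with 124. For I2, I3a and I3b the counts were 89, 33 and 43 above and 51, 74 and 20 below. Among the 264 genes that did lie above, I1b was the nearest I pool in 133, and among the 273 that lay below, I1a was the nearest in 110 and I1b in 90.

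**Figure D5:**
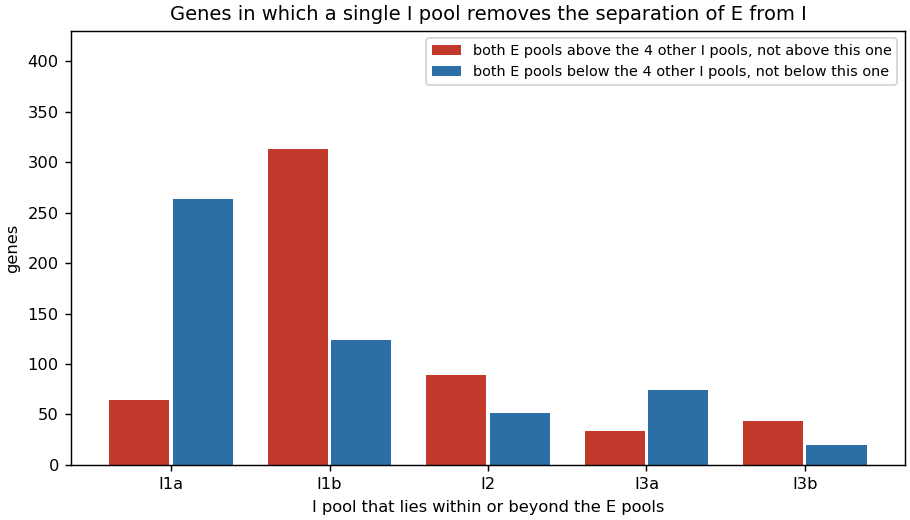
Number of kept genes in which both E pools lie above (red) or below (blue) the 4 other I pools but not above or below the named pool. I1b has the highest red bar at 313 and I1a the highest blue bar at 264, against at most 89 in either direction for I2, I3a and I3b.

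The labelled cell class was checked against markers. All 6 pan-neuronal markers measured were kept, and their summed linear signal was 17036 to 17125 in the E pools and 8715 to 16817 in the I pools. The highest I sum was thus close to the E sums. Snap25, the strongest of these markers, was at 13.57 in I1b against 13.39 and 13.25 in the E pools. Rbfox3 (2.68) and Uchl1 (0.43) lay apart above, Elavl4 (-0.84) below, and the others overlapped. The part of this sum in the differences was not tested. Microglia and endothelial markers were under 3 in every pool, as were those of motor and cholinergic neurons, with Chat at the floor. Of 9 astrocyte markers 6 were under 3 in every pool, with Gfap and Aldh1l1 at the floor, and their sum was 192 to 579 in the E pools and 81 to 275 in the I pools, set mainly by S100b, which neurons of the brainstem also express. Of 10 oligodendrocyte markers 6 were under 3 in every pool, and the sum was 112 to 119 in E and 92 to 703 in I. In this last list Mbp, of myelin, was at 6.20 in I3a and 5.50 in I1b against 2.94 or less in the E pools, and Cnp at 9.14 in I3a; their part in the values of those pools was not tested. Purkinje cell markers summed to 29 to 41 in E and 25 to 46 in I, and granule cell markers to 64 to 131 and 25 to 365. The granule cell sum moved through Neurod1, at 8.30 in I3a and 8.44 in I3b, while Gabra6, Slc17a7 and Cbln3 were under 3 in every pool. Monoaminergic markers summed to 77 to 92 and 76 to 364, the last through Slc6a2, the noradrenaline transporter, at 8.18 in I2.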

How the data were processed

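The deposited values are log2 signals that the authors made with affy and GCRMA, per the submitters' processing notes; no versions are given, and base 2 was inferred from the values, which run from 2.387 to 15.9. GCRMA corrects background, normalizes arrays and summarises probe sets, so signals near its floor carry no order. Of 30843 probe sets, 64 are controls, 24034 have 1 gene symbol in the platform annotation, 477 several and 6268 none; 23883 were matched by Entrez identifier to RefSeq (GRCm38.p6). Each gene took the value of 1 probe set, the 1-symbol set whose mean over the 14 arrays was highest; 5276 of 16244 genes had several.

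The 2 arrays of a pool were averaged, and genes with a pool mean of at least 5 were kept. E minus I was tested on 7 pool means with lmFit and eBayes (intensity trend, 5 residual degrees of freedom) in limma 3.58.1 under R 4.3.3, and a gene was called when its Benjamini-Hochberg adjusted p was under 0.05 and its sides were at least 1 log2 unit apart; the script was tested on simulated data. Tables and figures used pandas 2.3.3 and matplotlib 3.10.9. "Apart" means that the means of both E pools lay beyond those of all 5 I pools, and single arrays can still overlap.

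Named were the transmitter genes, called genes, the 15 largest differences and 10 largest gaps per direction among genes apart, and up to 5 members per list that differed by at least 1; 121 kept genes with clone-type names were counted and not named. The 24 lists and the comparison were chosen with earlier results of these data known. Alternatives changed the filter, probe sets, scaling, prior, floor, the handling of technical arrays and the pools used. Precision is limited by how few pools there are.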

Additional observations from a re-analysis of the deposited data

Results flagged for a closer look

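For each of 107 named genes it was asked whether 1 of the 5 I pools lay far from the other 4, by the gap to the nearest pool over the range; chance flags about 1 in 20 such groups, and 9 genes were picked out. Of these, 3 were set apart by I1b, 5 by I2 and 1 by I3b. In I1b, Prkg2 was highest at 5.11 (next pool 3.16), Cntnap5a at 7.90 (next 4.31) and Cntn3 at 6.95 (next 4.10). The levels of Cntnap5a and Cntn3 were close to those of the E pools, while Prkg2 was higher there, at 6.18 and 6.34. In I2, Kcnt2 was highest at 7.55 (next 3.44), Pappa at 8.23 (next 2.97), Mboat7 at 5.87 (next 3.93) and Hk1 at 10.47 (next 9.80), while Sema3a was lowest at 3.23 (next 6.39). In I3b, Cpe was highest at 14.50 (next 14.06).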

How the results depend on the processing

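Slc32a1 stayed lower in the E pools in all 22 alternatives (-4.07 to -2.88). Its call was kept under the other filters, probe set means, quantile normalization, median centring, robust eBayes, the floor at 5, both fits with the pool as a random block, without replicate 2 (adjusted p 0.0405) and without E1 (0.0248, where E2 alone stands for E and the spread comes from the I pools). It was lost with no intensity trend (-3.48, adjusted p 0.0563), without replicate 1 (-3.67, 0.0542), with each I family as 1 sample (-3.52, 0.341), and without E2 (-2.88, 0.199), I1a (-3.52, 0.204), I1b (-3.54, 0.0781), I2 (-3.41, 0.127), I3a (-3.46, 0.215) or I3b (-3.45, 0.223). It was also lost without I1b and I3a (-3.55, 0.164) and without I1a, I1b and I3a (-3.66, 0.128), 2 choices made with the levels of Slc17a6 known, from which nothing is drawn.

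The number of genes called was 2 with no filter (Slc32a1 and Arpp21, 3.98 and 3.99 in the E pools and at most 2.72 in the I pools), 2 with the filter at 7 (with Gad1, adjusted p 0.0244), 2 with values under 5 set to 5 (with Prkg2, whose I values that step makes nearly equal), and 0 with no trend or with I families, where the smallest adjusted p was 0.0563 and 0.341 and 259 and 322 genes had an unadjusted p under 0.05. It was 6 with single arrays and the pool as a random block and 5 with the replicate block added (without Auts2), fits in which technical arrays add to the degrees of freedom, 0 to 1 without a technical replicate, 0 to 2 without a pool, 2 without I1b and I3a and 7 without I1a, I1b and I3a. Technical numbers do not pair pools: deviations of same-numbered arrays correlated at -0.117 to 0.212 over 21 pairs. Genes above and below all I pools numbered 751 and 542 with no filter, 144 and 159 with the filter at 7, and 615 and 605 with I families. They numbered 686 and 530 without I1b and I3a, 924 and 1275 without I1a, I1b and I3a, 297 to 775 and 293 to 664 without a pool, and 180 to 353 and 220 to 288 without a technical replicate. Leaving out pools, or averaging I pools by family, can only keep or raise these counts. All 114 other named genes that were tested kept their sign in every alternative that tested them, and 12 passed the test in at least 1. For genes whose pools lie apart, leaving out a pool cannot turn the sign. Slc17a6, Nrn1, Thy1, Fhod3, Tmem91, Scn4b and Cntnap5a passed only with I pools left out. With all 7 pools, Gad2, Slc6a5 and Auts2 passed only in fits of single arrays. Nothing is drawn from these passes. Signal over background limits what can be seen: 11835 genes were under 5 in every pool.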
